A study of Saccharomyces cerevisiae with 4 samples.

Results

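The 54 genes described here encode assembly factors of the 60S ribosomal subunit in the yeast Saccharomyces cerevisiae, and they were taken by systematic name from the 7127 features counted in each library. All 54 were found, and all 54 passed the filter on low counts, as did 6197 features in all. The list was set by the known roles of the proteins and by no measured value, although it was drawn up with earlier results of these data in view. Messenger RNA was profiled in a strain in which TOR1 (YJR066W) was replaced by the kanMX4 cassette, here called the tor1 deletion, and in its parent BY4741, here called the wild type. Both strains are haploid MATa cells of the S288C background that carry his3-1, leu2-0, met15-0 and ura3-0. Both were grown in minimal medium with 2% dextrose, 0.5% ammonium sulfate and supplements for the auxotrophies at 30°C, were collected in logarithmic growth at an optical density of 0.5 to 0.7, and carry a time of 4 h in their titles. Each strain gave 2 Ion Torrent libraries of poly(A) RNA. Separate cultures or clones are not named in the labels, so the replicates possibly vary for technical reasons only. Each p-value sets the strain difference against a spread estimated from these 4 libraries, and it may not carry over to new cultures.

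The large ribosomal subunit is built around a ribosomal RNA precursor that RNA polymerase I makes in the nucleolus. Assembly factors fold, cut and modify this RNA and place ribosomal proteins on it in the nucleolus. The particle then moves into the nucleoplasm, where ATPases and GTPases remodel it, and it is exported to the cytoplasm, where the last factors are removed and recycled. TOR complex 1, in which Tor1 or its relative Tor2 is the kinase, is known to couple nutrient supply to the transcription of these genes. Here 39 genes were placed in the nucleolar step, 7 in the nuclear step and 8 in the export and cytoplasmic step. The placement went by where each protein acts or leaves the particle, and it is approximate, since some factors span steps. Factors that join in the nucleolus but leave only in the cytoplasm, such as Nog1, Rlp24, Tif6 and Mrt4, were counted with the last step. Only the placement of these named factors was varied.

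Most of these genes share short promoter sequences. The choice of genes did not use these sequences, but they are already known from this class of genes, so a high share is no independent result. Promoters of yeast ribosome assembly genes are known for the PAC element, which the repressors Dot6 and Tod6 bind, and for the RRPE element, which Stb3 binds. Windows of 300 bases, from 250 bases before the start codon to 50 bases into the coding sequence, were read from the R64 assembly of S288C and searched on both strands for the PAC core GATGAG, which reads CTCATC on the opposite strand, and for the RRPE core AAAATTTT, which is its own reverse complement. The promoters of NOP7, YTM1, RLP24 and DBP9 are shown because they held the most matches, 5 each. MAK16 and TIF6, at the opposite ends of the range of changes, were added after their values were seen. The windows are chrVII:695167-695466 on the plus strand for NOP7, chrXV:832563-832862 on the plus strand for YTM1, chrXII:166287-166586 on the plus strand for RLP24, chrXII:696781-697080 on the minus strand for DBP9, chrI:101096-101395 on the minus strand for MAK16 and chrXVI:593020-593319 on the minus strand for TIF6. They run 5′ to 3′ toward the gene, and capitals mark the matches, where touching or overlapping copies of the PAC core form 1 run.
NOP7: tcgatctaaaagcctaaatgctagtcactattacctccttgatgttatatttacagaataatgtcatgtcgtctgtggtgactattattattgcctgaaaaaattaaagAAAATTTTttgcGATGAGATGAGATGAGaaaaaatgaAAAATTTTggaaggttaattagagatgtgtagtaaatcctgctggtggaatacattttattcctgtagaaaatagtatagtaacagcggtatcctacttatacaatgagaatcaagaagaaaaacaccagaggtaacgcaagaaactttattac
YTM1: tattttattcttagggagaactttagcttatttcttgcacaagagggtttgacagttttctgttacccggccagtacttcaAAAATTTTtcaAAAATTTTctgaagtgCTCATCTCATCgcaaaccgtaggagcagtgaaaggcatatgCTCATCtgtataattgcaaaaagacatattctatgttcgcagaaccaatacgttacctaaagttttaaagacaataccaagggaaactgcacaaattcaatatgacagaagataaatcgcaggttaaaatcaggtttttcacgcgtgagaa
RLP24: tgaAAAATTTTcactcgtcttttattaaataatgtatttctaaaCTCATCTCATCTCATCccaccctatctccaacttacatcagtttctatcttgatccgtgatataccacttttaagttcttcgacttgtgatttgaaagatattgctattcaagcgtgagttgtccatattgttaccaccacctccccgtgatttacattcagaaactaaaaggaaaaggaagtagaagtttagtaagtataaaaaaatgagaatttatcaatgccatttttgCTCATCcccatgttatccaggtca
DBP9: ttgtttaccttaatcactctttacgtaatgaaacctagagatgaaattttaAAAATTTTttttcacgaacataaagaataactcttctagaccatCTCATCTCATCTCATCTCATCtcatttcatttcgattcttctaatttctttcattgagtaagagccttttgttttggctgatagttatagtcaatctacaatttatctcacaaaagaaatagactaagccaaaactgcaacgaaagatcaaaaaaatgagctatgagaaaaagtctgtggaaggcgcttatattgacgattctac
MAK16: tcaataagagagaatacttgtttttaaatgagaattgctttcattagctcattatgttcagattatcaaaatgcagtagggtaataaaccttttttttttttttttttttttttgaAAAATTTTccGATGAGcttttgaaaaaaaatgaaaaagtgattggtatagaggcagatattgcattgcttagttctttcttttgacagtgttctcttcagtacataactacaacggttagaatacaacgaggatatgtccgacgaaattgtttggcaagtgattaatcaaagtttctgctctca
TIF6: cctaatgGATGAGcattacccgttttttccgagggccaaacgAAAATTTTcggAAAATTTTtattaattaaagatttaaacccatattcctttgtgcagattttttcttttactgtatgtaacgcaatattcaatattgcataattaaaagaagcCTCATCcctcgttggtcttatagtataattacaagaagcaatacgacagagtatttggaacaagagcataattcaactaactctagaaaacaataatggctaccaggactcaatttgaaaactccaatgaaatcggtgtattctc

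The PAC core was present in 51 of the 54 windows (94.4%), against 1224 of 6007 windows of all nuclear coding genes (20.4%). The RRPE core was present in 45 (83.3%), against 543 of all windows (9.04%). Both were present in 42 (77.8%), against 263 of all windows (4.38%), and no window of the 54 held neither. The letters of the cores do not allow a match of one motif to overlap a match of the other. Only the RRPE core was found before NOP53, SPB1 and NSA1, and only the PAC core before NOP4, NOP12, NOP16, RRP1, LSG1, MAK5, SSF1, DBP6 and DBP7. Both motifs were present before 29 of 39 nucleolar (74.4%), 6 of 7 nuclear (85.7%) and 7 of 8 export and cytoplasmic genes (87.5%), and the difference between steps was not tested.

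The median distance of the matches from the start codon was much the same before other genes, while a larger share of them lay in a fixed stretch. Of 89 PAC matches in the 54 windows, 75 (84.3%) were centred 50 to 200 bases before the start codon, against 61.1% of 1354 matches in all other windows, and the median distance was 116 bases, against 109 bases elsewhere. Of 51 RRPE matches, 47 (92.2%) lay there, against 75% of 532 matches elsewhere, with a median distance of 137 bases, against 131 bases elsewhere. Where both motifs were present, the RRPE core was the farther of the nearest pair from the gene in 35 of 42 windows, against 138 of 221 other windows. The centres of the nearest pair were a median of 16.5 bases apart, and 22 bases apart elsewhere. TIF6 was among the exceptions, with its RRPE matches 204 and 193 bases and its PAC matches 240 and 92 bases before the start codon. A match is a sequence description, and binding was not measured.

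**Figure D1:**
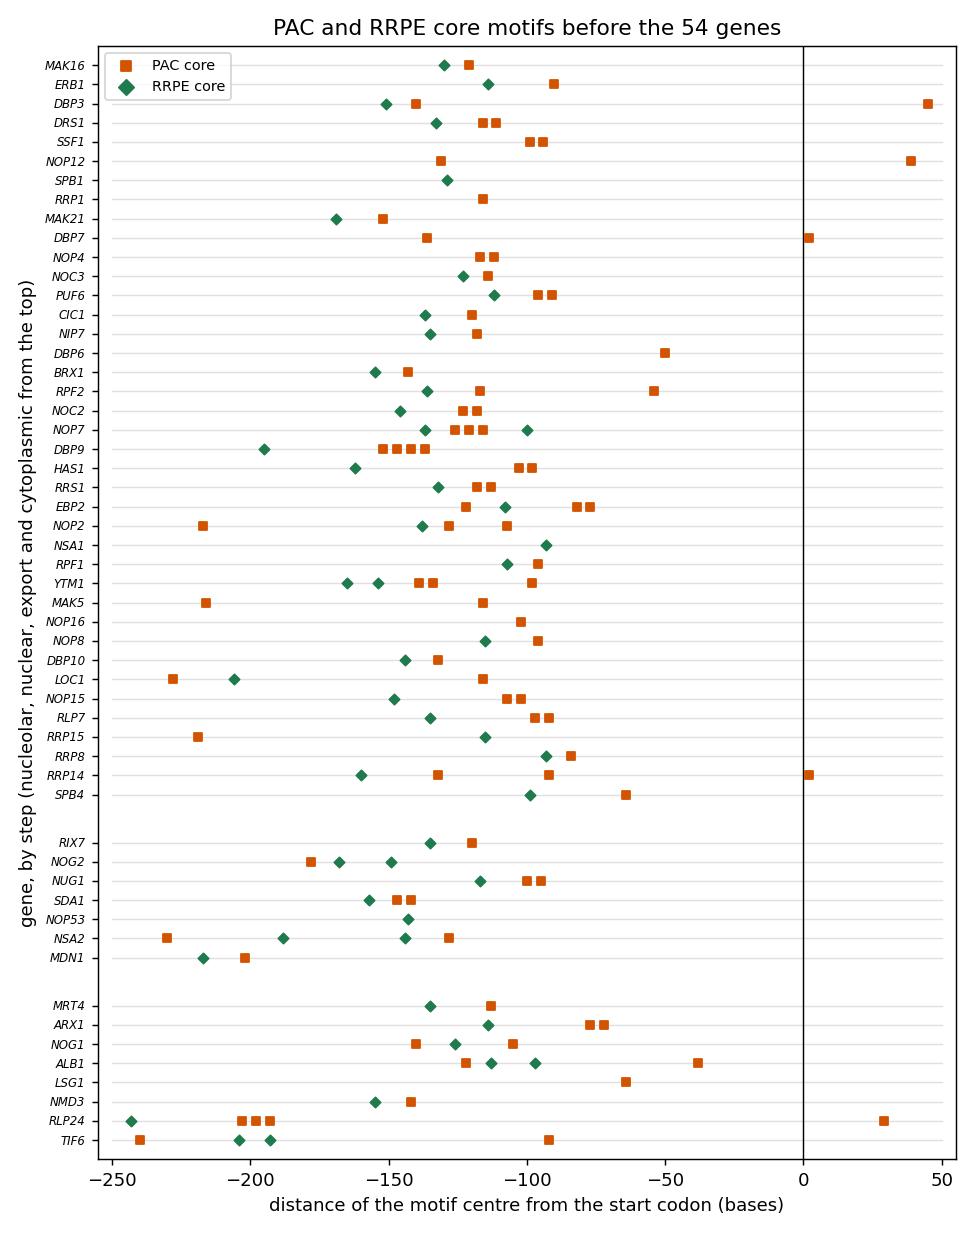
Positions of PAC core (squares) and RRPE core (diamonds) matches in the windows of the 54 genes, as the distance of the motif centre from the start codon in bases, with 1 gene per line and genes ordered by step and then by change. Most matches stand 50 to 200 bases before the start codon. In the nearest pair of the motifs, the RRPE core is the farther from the gene in 35 of the 42 windows that hold both.

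Total counts were 8060480 and 10244377 in the deletion libraries and 14446057 and 9623963 in the wild-type libraries. TOR1 had 0 and 1 counts in the deletion libraries, against 635 and 357 in the wild-type libraries, as the labels require. The a-cell genes MFA1, MFA2, STE2, BAR1 and STE6 were expressed in every library, at 107 to 3369 CPM (read counts scaled to a common library size with TMM factors), while the α-cell genes MF(ALPHA)1, MF(ALPHA)2 and STE3 stayed between 1.29 and 10.9 CPM. SAG1, the fourth α-cell gene checked, was at 23.8 to 27.6 CPM in both strains. Of the auxotrophy genes, LEU2 was at 0 counts throughout, and 3 counts, the limit that a count of 0 allows for counting error only, would be 0.183 to 0.431 CPM. URA3 had 0 and 0 counts in the deletion, against 1 and 0 in the wild type, and MET17 (the gene of met15-0) had 0 and 0 in the deletion, against 3 and 3 in the wild type. HIS3 had 7504 and 5227 counts in the deletion, against 21921 and 17330 in the wild type. The his3-1 allele is known as a partial deletion of the gene, so these reads neither bear out the label nor go against it.

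The assembly factor genes took a smaller share of the messenger RNA in the tor1 deletion. Together they held 0.136% and 0.137% of all counts in the deletion libraries, against 0.353% and 0.350% in the wild-type libraries. Replicates thus lay far closer to each other than the strains did. After TMM scaling the summed level was 1578 and 1481 CPM in the deletion, against 3111 and 3165 CPM in the wild type. These are shares of the poly(A) RNA in a bulk culture, so fewer cells that express a gene and less RNA per cell cannot be told apart, nor can fewer transcripts and more of other transcripts.

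Gene by gene, 45 of the 54 fell, none rose and 9 did not pass (quasi-likelihood test of edgeR, with p adjusted over all 6197 features by Benjamini-Hochberg and a threshold of 0.05). The same test called 24.9% of all features lower and 26.9% higher. DESeq2 called 41 of the 54 lower and none higher, and at an unadjusted p below 0.05 edgeR also had 0 higher. At least a 2-fold fall was called for 32 genes, against 16.1% of all features, and at least a 4-fold fall for 5 genes (MAK16, RIX7, ERB1, NOG2 and DBP3), against 3.18%. The median log2 fold change of deletion over wild type was -1.24, a 2.36-fold lower level, while the median of all features was -0.02. Both deletion libraries lay below both wild-type libraries for 52 of the 54 genes, against 40.2% of all features. The exceptions were SPB4, whose libraries overlapped, and TIF6, which was higher in both deletion libraries.

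The set as a whole stayed lower under each scaling, although the medians moved with it. With library totals alone 51 of the 54 genes were called lower and with upper quartile factors 52, and these scalings moved the median of all features by -0.33 and -0.39. Relative to that moving median the 54 genes stood at -1.22 under TMM, -1.21 under library totals and -1.22 under upper quartile scaling. A scaling moves all features by nearly the same amount, so this relative value could hardly differ and is no separate support. Over all features the calls were 1543 lower and 1665 higher with TMM, 2328 lower and 1179 higher with library totals, and 2508 lower and 1110 higher with upper quartile factors.

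**Figure D2:**
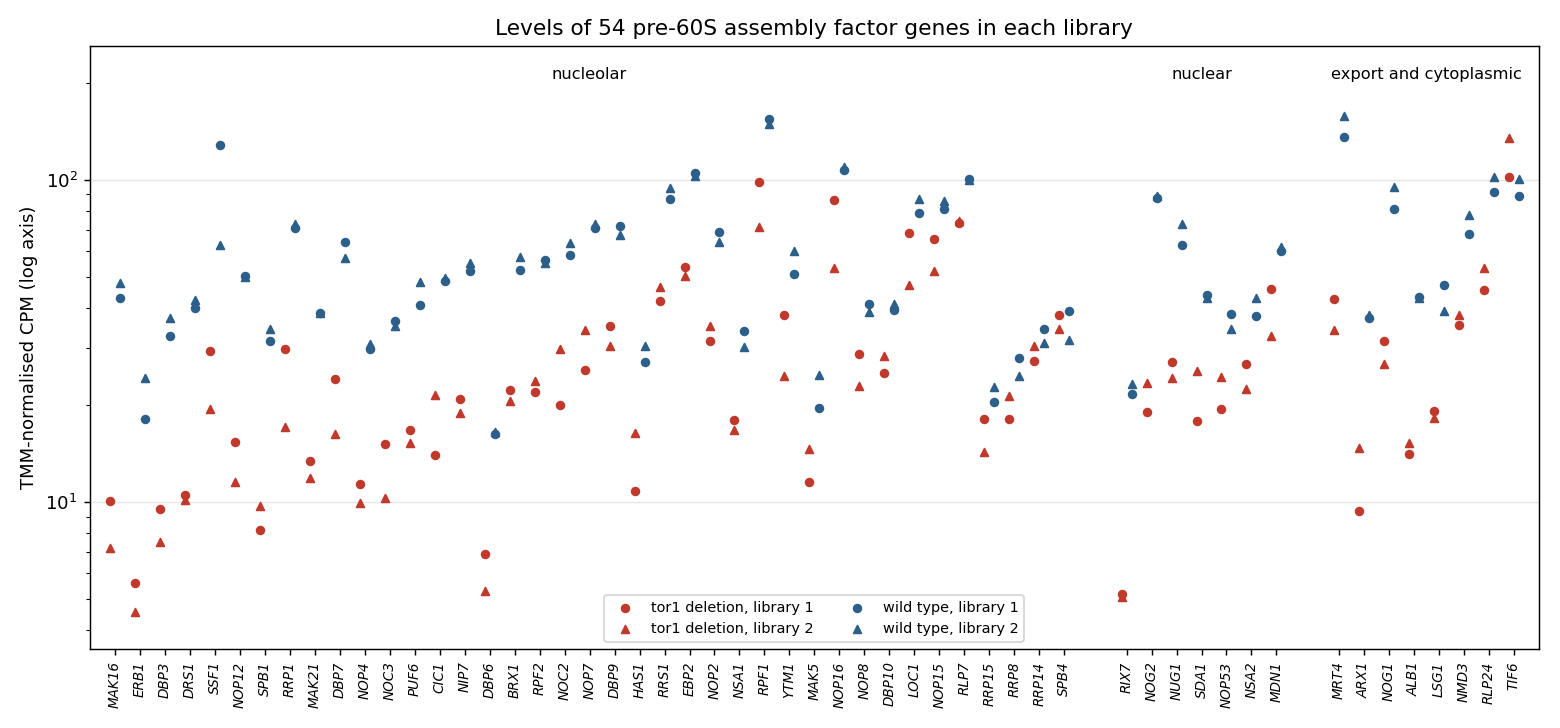
TMM-normalised CPM (log axis) of each of the 54 genes in the 2 tor1 deletion libraries (red) and the 2 wild-type libraries (blue), grouped by step and ordered by change. The red points lie below the blue points for 52 genes, SPB4 overlaps, and TIF6 is the only gene with both red points above both blue points.

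In the nucleolar step 31 of 39 genes fell and 8 did not pass, with a median log2 fold change of -1.26. MAK16 (YAL025C, chromosome I, 100225 to 101145, minus strand of R64), a factor of an early particle also needed to maintain the killer virus, showed the steepest fall of the 54. It had 10.1 and 7.19 CPM in the deletion libraries, against 42.8 and 47.8 CPM in the wild-type libraries, a log2 fold change of -2.40 ± 0.25 (SE, 2 libraries per strain, edgeR quasi-likelihood adjusted p = 0.000479). The strains were separated by a gap several times wider than either pair of replicates. Mak16 sits in a module with Rrp1, Rpf1 and Nsa1, and the genes of this module fell by unequal amounts. RRP1 had 29.9 and 17.0 CPM in the deletion, against 70.8 and 72.6 CPM in the wild type (-1.62 ± 0.27). RPF1 had 98.4 and 71.1 CPM in the deletion, against 154 and 149 CPM in the wild type (-0.84 ± 0.20), and NSA1 had 17.95 and 16.7 CPM in the deletion, against 34.0 and 30.2 CPM in the wild type (-0.89 ± 0.21). The difference among the 4 changes was not tested.

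Nop7, Erb1 and Ytm1 form a complex that is needed to process the precursor of 25S ribosomal RNA, and all 3 genes fell. ERB1 (YMR049C, chromosome XIII, 368094 to 370517, minus strand) was at 5.602 and 4.55 CPM in the deletion, against 18.1 and 24.3 CPM in the wild type (-2.06 ± 0.28). NOP7 (YGR103W) was at 25.6 and 34.2 CPM in the deletion, against 70.9 and 73.1 CPM in the wild type (-1.26 ± 0.20). YTM1 (YOR272W) was at 37.9 and 24.5 CPM in the deletion, against 50.8 and 59.9 CPM in the wild type (-0.83 ± 0.25). The YTM1 call ended without either wild-type library, and its change was -0.54 without deletion library 2. The promoters of NOP7 and YTM1 printed above carry the same number of both motifs, 3 PAC and 2 RRPE cores.

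Mak21 (also called Noc1) and its partners Noc2 and Noc3 accompany the particle from early assembly toward the nucleoplasm, and their genes fell together. MAK21 had 13.4 and 11.8 CPM in the deletion libraries, against 38.6 CPM in each wild-type library (-1.62 ± 0.21). NOC2 had 19.96 and 29.8 CPM in the deletion, against 58.5 and 63.4 CPM in the wild type (-1.28 ± 0.23). NOC3 had 15.1 and 10.3 CPM in the deletion, against 36.4 and 35.2 CPM in the wild type (-1.51 ± 0.25). The 5S particle pair RPF2 and RRS1, which bring in the 5S RNA with its ribosomal proteins, changed by -1.28 ± 0.18 and -1.03 ± 0.17, and both fell.

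DEAD-box RNA helicases, which rearrange base pairs in the precursor, fell in 8 of 9 cases with a median of -1.09. DBP3 (YGL078C, chromosome VII, 360288 to 361859, minus strand) was at 9.48 and 7.51 CPM in the deletion, against 32.6 and 37.1 CPM in the wild type (-2.04 ± 0.24). DRS1 was at 10.5 and 10.2 CPM in the deletion, against 39.8 and 42.4 CPM in the wild type (-1.99 ± 0.21). DBP7 was at 24.0 and 16.2 CPM in the deletion, against 64.1 and 57.3 CPM in the wild type (-1.60 ± 0.24). Of the 9 helicase genes only SPB4 showed overlap between strains, and 40.2% of all features were lower in the deletion without overlap. DBP6 was at 6.89 and 5.29 CPM in the deletion, against 16.2 and 16.5 CPM in the wild type (-1.43 ± 0.26). DBP6, DBP9, HAS1, MAK5 and DBP10 fell by less, with log2 fold changes between -1.43 and -0.59. SPB4 was the exception, at 38.1 and 34.3 CPM in the deletion, against 39.2 and 31.9 CPM in the wild type (0.02 ± 0.20, adjusted p = 0.931). Its sign turned to -0.31 under library totals and -0.37 under upper quartile scaling, and neither passed. The calls of MAK5 and DBP10 ended with DESeq2 and without either wild-type library, and that of HAS1 without wild-type library 2.

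Of the 3 RNA methyltransferase genes, SPB1, whose product methylates a ribose of the peptidyl transferase centre, had 8.19 and 9.73 CPM in the deletion, against 31.5 and 34.3 CPM in the wild type (-1.87 ± 0.23). NOP2, the 25S RNA m5C methyltransferase, fell as well, at 31.6 and 35.2 CPM in the deletion, against 68.8 and 64.2 CPM in the wild type (-0.99 ± 0.18), although without wild-type library 1 its adjusted p was 0.0529. RRP8, an m1A methyltransferase, had 18.1 and 21.3 CPM in the deletion, against 27.9 and 24.5 CPM in the wild type (-0.41 ± 0.22, adjusted p = 0.15), and did not pass. It was called lower under library totals, under upper quartile factors and without deletion library 2. The RNA-binding factor gene NOP12 had 15.4 and 11.5 CPM in the deletion, against 50.2 and 49.7 CPM in the wild type (-1.90 ± 0.22).

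SSF1 (YHR066W, chromosome VIII, 229335 to 230696, plus strand) stood apart among the replicates. It had 29.3 and 19.4 CPM in the deletion, against 128 and 62.8 CPM in the wild type, a change of -1.98 ± 0.37 (adjusted p = 0.00455). The log2 ratio of wild-type library 2 over library 1 was -1.03 for SSF1 and between -0.30 and 0.42 for the other 53 genes. Without wild-type library 1 the change of SSF1 was -1.37 and was still called. SSF1 is 92.1% identical to its paralog SSF2 over 1362 aligned coding bases, which leaves the share of reads assigned to each of them uncertain. SSF2 had 26.7 and 27.3 CPM in the deletion, against 38.3 and 34.7 CPM in the wild type (-0.44 ± 0.19, adjusted p = 0.0916), and the sum of both genes fell by 1.37 on the log2 scale. No other of the 54 genes had a copy at 90% identity or more. Ssf1 works with Rrp14 and Rrp15, and neither of their genes passed. RRP14 had 27.3 and 30.4 CPM in the deletion, against 34.4 and 31.1 CPM in the wild type (-0.18 ± 0.19, adjusted p = 0.453). RRP15 had 18.1 and 14.3 CPM in the deletion, against 20.4 and 22.8 CPM in the wild type (-0.42 ± 0.23, adjusted p = 0.172). RRP15 was called lower under library totals, under upper quartile factors and without deletion library 1, where its change was -0.58, against -0.24 without deletion library 2. RRP14 was called lower under upper quartile factors alone, at -0.58, and its change ran from that value to -0.10 without deletion library 1.

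The remaining nucleolar genes that fell were NOP4, PUF6, CIC1, NIP7, BRX1, EBP2 and NOP8, with log2 fold changes between -1.51 for NOP4 and -0.63 for NOP8. The NOP8 call ended with DESeq2 and without either wild-type library, as those of RPF1 and NSA1 did without either wild-type library. A further 4 nucleolar genes did not pass, and their strains did not overlap, where 40.2% of all features were lower in the deletion without overlap. NOP16 had 86.5 and 53.2 CPM in the deletion, against 107 and 110 CPM in the wild type (-0.64 ± 0.24, adjusted p = 0.0636). LOC1, which encodes an RNA-binding protein also known for localising the ASH1 messenger, had 68.1 and 47.0 CPM in the deletion, against 78.6 and 87.1 CPM in the wild type (-0.53 ± 0.22, adjusted p = 0.0792). NOP15 had 65.4 and 51.9 CPM in the deletion, against 81.1 and 85.8 CPM in the wild type (-0.51 ± 0.18, adjusted p = 0.053). RLP7, a relative of ribosomal protein uL30 that holds a place on the precursor, had 73.5 and 74.4 CPM in the deletion, against 100.2 and 100.1 CPM in the wild type (-0.44 ± 0.16, adjusted p = 0.054). Under upper quartile factors, and likewise under library totals, all 4 were called lower. Leaving out a deletion library moved some of these values. NOP16 was at -1.02 without deletion library 1 and -0.32 without deletion library 2, and LOC1 at -0.81 and -0.28. In the same order NOP15 was at -0.67 and -0.35, and RLP7 at -0.42 and -0.44. NOP15 and RLP7 were called with the filter of 50 counts in 2 libraries. A fit with 1 deletion library takes its spread from the wild-type pair, whose replicates were more alike. Calls from such fits, such as those of RRP8 and RRP15 above, are therefore weak evidence of a fall.

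All 7 genes of the nuclear step fell, with a median of -0.99 and a wide range from -2.13 to -0.64. RIX7 (YLL034C, chromosome XII, 70633 to 73146, minus strand), the AAA ATPase that strips Nsa1 from the particle, had 5.17 and 5.08 CPM in the deletion, against 21.7 and 23.2 CPM in the wild type (-2.13 ± 0.24, adjusted p = 0.00069). NOG2 (YNR053C, chromosome XIV, 721120 to 723112, minus strand), a GTPase of the nucleoplasmic particle, had 19.0 and 23.4 CPM in the deletion, against 87.7 and 89.2 CPM in the wild type (-2.06 ± 0.19, adjusted p = 0.000334). For both genes the deletion libraries lay more than 3 times below the wild-type libraries, and the replicates of a strain were close. NOG2 is the only one of the 54 with an intron and with an annotated gene overlapping it, the small nucleolar RNA gene SNR191 in that intron. SNR191 had 1 and 0 counts in the deletion libraries, against 43 and 44 in the wild-type libraries and the sources used here do not say if reads were counted by strand.

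NUG1, a second nuclear GTPase gene, had 27.1 and 24.2 CPM in the deletion, against 62.8 and 72.8 CPM in the wild type (-1.40 ± 0.19). SDA1, needed for late nuclear particles, had 17.8 and 25.5 CPM in the deletion, against 43.7 and 42.9 CPM in the wild type (-0.99 ± 0.23). The other nuclear genes changed less. NOP53, which recruits the exosome to the particle, had 19.4 and 24.4 CPM in the deletion, against 38.2 and 34.5 CPM in the wild type (-0.73 ± 0.21). NSA2 had 26.7 and 22.3 CPM in the deletion, against 37.6 and 43.1 CPM in the wild type (-0.72 ± 0.20). MDN1, the giant AAA ATPase that removes Ytm1 and Rsa4, had 45.8 and 32.8 CPM in the deletion, against 60.2 and 61.6 CPM in the wild type (-0.64 ± 0.21). The 4 calls of SDA1, NOP53, NSA2 and MDN1 ended without either wild-type library, which left 3 of 7 nuclear genes called, MDN1 also lost its call with DESeq2, and its change was -0.41 without deletion library 2.

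In the export and cytoplasmic step 7 of 8 genes fell and the median was -1.38. MRT4 (YKL009W, chromosome XI, 426242 to 426952, plus strand), a relative of the stalk protein P0 that holds its place until the cytoplasm, had 42.7 and 34.1 CPM in the deletion, against 135 and 157 CPM in the wild type (-1.93 ± 0.20). ARX1, an export factor that covers the exit tunnel, had 9.34 and 14.7 CPM in the deletion, against 37.2 and 38.1 CPM in the wild type (-1.63 ± 0.26). ALB1, the partner of Arx1, had 14.1 and 15.2 CPM in the deletion, against 43.3 and 42.9 CPM in the wild type (-1.55 ± 0.20). The strains were well apart for each of these, and the changes of the partners ARX1 and ALB1 lay within 1 SE of each other.

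NOG1, a GTPase gene, had 31.5 and 26.9 CPM in the deletion, against 81.2 and 94.8 CPM in the wild type (-1.59 ± 0.19). RLP24, a relative of ribosomal protein eL24 that is exchanged for it in the cytoplasm, had 45.5 and 53.2 CPM in the deletion, against 91.3 and 102 CPM in the wild type (-0.97 ± 0.18). NMD3, the adaptor for the export receptor Crm1, had 35.3 and 37.9 CPM in the deletion, against 68.0 and 77.9 CPM in the wild type (-0.99 ± 0.18), and its cytoplasmic release factor gene LSG1 had 19.1 and 18.2 CPM in the deletion, against 47.0 and 39.1 CPM in the wild type (-1.21 ± 0.20). All 4 GTPase genes of the set, NOG1, NOG2, NUG1 and LSG1, therefore fell, with a median of -1.50. The calls of RLP24 and NMD3 ended without wild-type library 2.

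TIF6 (YPR016C, chromosome XVI, 592332 to 593069, minus strand), the yeast eIF6 that keeps the subunits apart until it is released in the cytoplasm, did not follow its neighbours in the pathway. It had 102 and 134 CPM in the deletion, against 89.3 and 100.2 CPM in the wild type, a log2 fold change of 0.32 ± 0.20 (adjusted p = 0.202). The deletion values were the higher ones without overlap, by a margin smaller than the gap between the deletion replicates. The sign depended on the scaling, at 0.00 under library totals and -0.07 under upper quartile scaling. Without deletion library 1 its change was 0.52. It was called higher in that fit alone, which takes its spread from the wild-type pair, and under the other 11 alternatives it was not called. With all 4 libraries its adjusted p under the alternatives ran from 0.191 to 0.99.

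**Figure D3:**
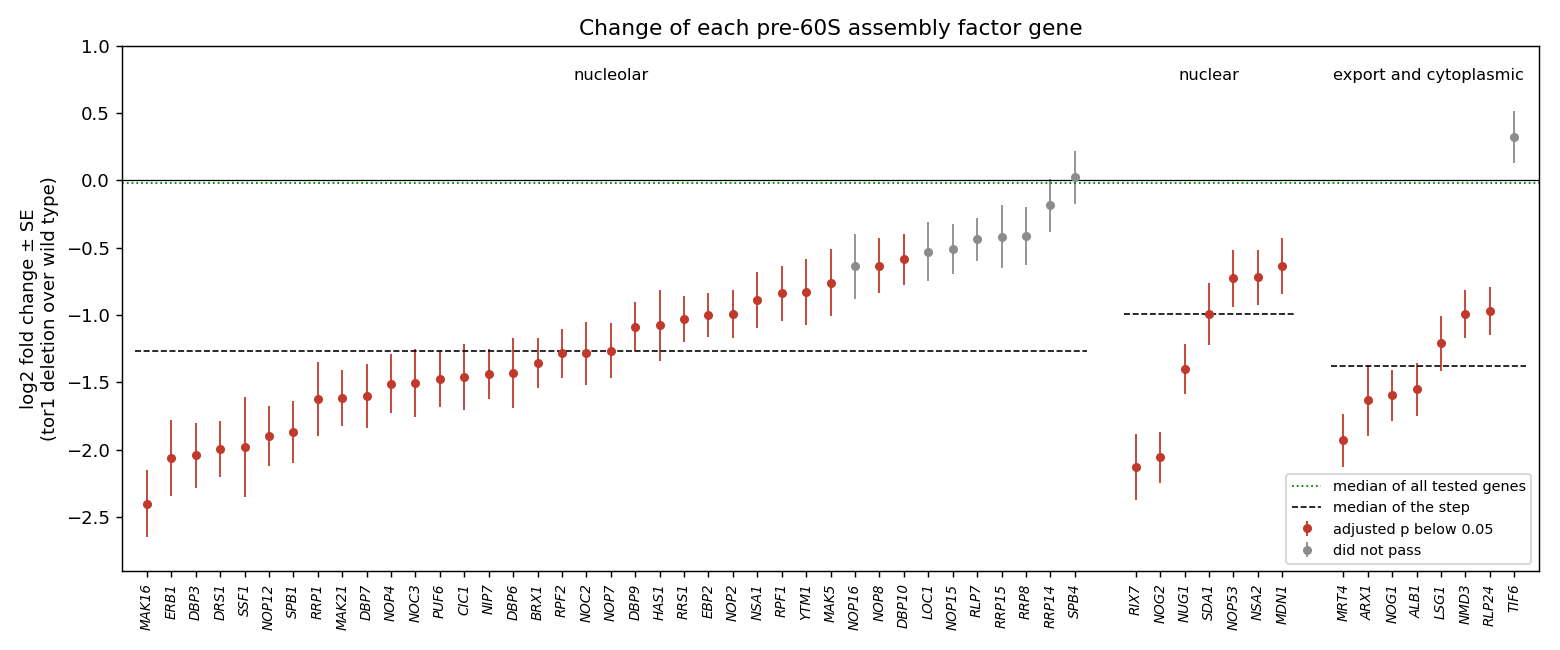
Log2 fold change of tor1 deletion over wild type for each of the 54 genes, with SE bars from the edgeR fit to 2 libraries per strain, red where the adjusted p was below 0.05 and grey where it was not. Dashed lines are the medians of the steps, at -1.26, -0.99 and -1.38, and the dotted line is the median of all tested features at -0.02.

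The log2 fold changes ran from -2.40 to 0.02 in the nucleolar step, from -2.13 to -0.64 in the nuclear step and from -1.93 to 0.32 in the export and cytoplasmic step, with medians of -1.26, -0.99 and -1.38. Placing NOG1, RLP24, TIF6 and MRT4 with the nucleolar genes left the medians at -1.26 and -1.38 and gave 34 of 43 nucleolar and 4 of 4 export and cytoplasmic genes lower. Per library, the summed level of the nucleolar genes was 1118 and 988 CPM in the deletion, against 2167 and 2146 CPM in the wild type. The nuclear genes summed to 161 and 158 CPM in the deletion, against 352 and 367 CPM in the wild type, and the export and cytoplasmic genes to 299.8 and 335 CPM in the deletion, against 592 and 652 CPM in the wild type. No test of a difference between steps was made.

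Per kilobase of coding sequence the genes covered a wide range of levels. The level ran from 2.04 to 160.4 CPM per kb in the deletion and from 4.13 to 206 CPM per kb in the wild type, with medians of 16.4 and 36.0 CPM per kb. In the wild type MRT4 (206 CPM per kb), RPF1 (170.3 CPM per kb) and RLP24 (161 CPM per kb) were highest, and DBP6 (8.65 CPM per kb) and MDN1 (4.13 CPM per kb) were lowest. In the deletion TIF6 had the highest level, at 160.4 CPM per kb, where MRT4 had 53.96 CPM per kb and ranked 9. RIX7 took the lowest place in the deletion, at 2.04 CPM per kb. Of the 9 genes that did not pass, 5 (NOP16, LOC1, TIF6, NOP15 and RLP7) were among the 9 highest per kb in the wild type, a level that also enters the fold change.

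The deletion replicates were less alike than the wild-type replicates. The log2 ratio of library 2 over library 1 ran from -0.81 for RRP1 to 0.66 for ARX1 in the deletion, and 21 of the 54 genes were higher in library 2. In the deletion the median absolute deviation of this ratio was 0.27 over the 54 genes, where it was 0.33 over all tested features with counts in both libraries, and in the wild type the same measures were 0.10 and 0.13. The 54 changes had an SD of 0.60 on the log2 scale, against a median SE of 0.21, where all tested features had an SD of 1.24.

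Outside the 54 genes, 33 other genes of 60S assembly, export and recycling were examined as a list. Of these, 22 fell, 1 rose and 10 did not pass, with a median of -0.85. Over all features the same test called 24.9% lower and 26.9% higher. RSA4, the substrate of Mdn1 on the particle, had 6.32 and 7.30 CPM in the deletion, against 29.7 and 30.3 CPM in the wild type (-2.13 ± 0.23). RIX1, which with Ipi1 and Ipi3 docks Mdn1, had 7.47 and 8.78 CPM in the deletion, against 32.8 and 32.5 CPM in the wild type (-2.001 ± 0.23). GRC3, a polynucleotide kinase of spacer processing, had 9.19 and 6.45 CPM in the deletion, against 39.2 and 34.8 CPM in the wild type (-2.25 ± 0.26). CGR1 had 12.4 and 15.4 CPM in the deletion, against 44.5 and 51.3 CPM in the wild type (-1.78 ± 0.22). These 4 were named because they had the smallest p of the 33, so their lack of overlap between strains is no separate result. MAK11, RIA1 and BCP1 overlapped between strains. BUD20 was higher in both deletion libraries than in both wild-type libraries (0.44 ± 0.18) and was not called. RSA1, named for 60S assembly and also a factor of box C/D snoRNP assembly, was the gene that rose, with 67.9 and 102 CPM in the deletion, against 23.4 and 22.6 CPM in the wild type (1.88 ± 0.24, adjusted p = 0.000995). Without wild-type library 2 only 12 of the 33 were called lower. The large-subunit ribosomal proteins that these factors assemble, 76 RPL genes, had a median of -1.78, with 74 lower and 2 that did not pass, and many of these are near-identical duplicates between which reads cannot be divided with certainty.

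Genes outside the 54 that carry the same promoter motifs also tended to be lower. Only the 54 genes were taken out for this, and other ribosome assembly genes, a class known for these motifs, were left in. Of 218 other tested genes with both cores in the window, 129 (59.2%) fell and 26 (11.9%) rose, with a median of -0.85. Of 4339 tested genes with neither core, 904 (20.8%) fell and 1349 (31.1%) rose, with a median of 0.12. With the members included, genes with the PAC core alone fell in 26.9% and rose in 22.9% of 898 cases, and those with the RRPE core alone fell in 33% and rose in 20.5% of 273 cases. Among the 54 the median was -1.08 for the 42 genes with both cores, -1.51 for the 9 with the PAC core alone and -0.89 for the 3 with the RRPE core alone. Of these, 34, 8 and 3 fell. The 9 genes that did not pass were 8 of the 42 with both cores and 1 of the 9 with the PAC core alone, NOP16. These are descriptions of sequence and change side by side, and no test of the motifs was made.

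**Figure D4:**
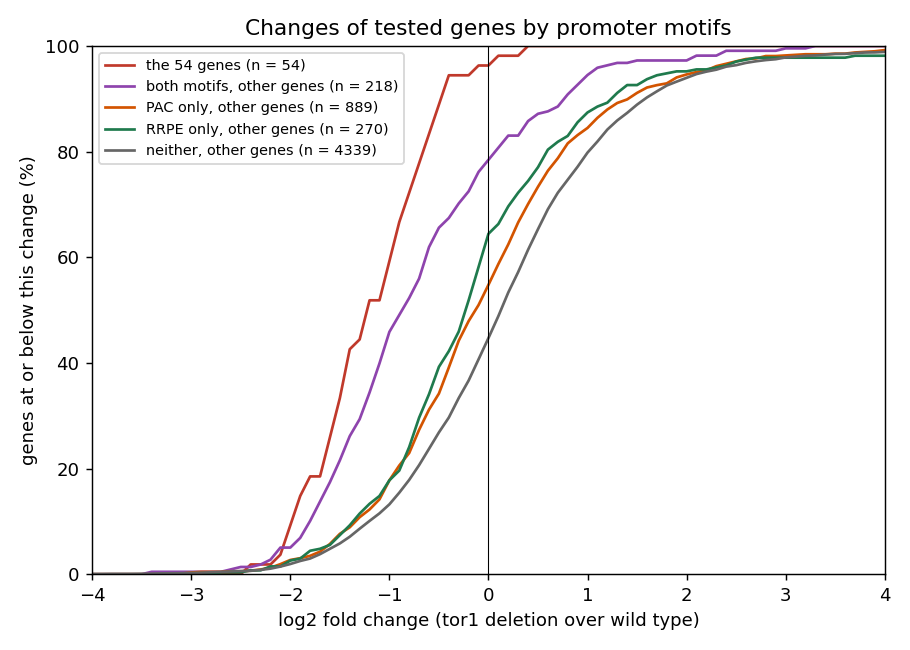
Cumulative share of tested genes (%) at or below each log2 fold change of tor1 deletion over wild type, for the 54 assembly factor genes (red) and for other genes by the motifs in their 300-base window. At a change of 0, 96.3% of the 54 genes, 78.4% of other genes with both cores and 44.7% of genes with neither core lie at or below the line.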

How the data were processed

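Poly(A) RNA of 4 libraries, 2 per strain, was analysed, with strain and replicate taken from the sample titles. Deposited by the authors were whole-number read counts for each gene, and per the submitters' processing notes FastQC, Subread and featureCounts and the build sacCer3 were used. The sources used here give no versions, annotation or strand setting. The authors also deposited a log10 table of 6519 genes, which equalled log10(count/constant + 1) with a constant for each library and entered only as an alternative with limma 3.58.1.

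Counts were tested with edgeR 4.0.16 in R 4.3.3 (filterByExpr, TMM, quasi-likelihood F test, strain as the only term). Benjamini-Hochberg adjustment ran over 6197 features, and 930 were filtered out. The edgeR fit was tested on simulated data. Each SE was obtained as the size of the log2 fold change over the root of F. CPM use TMM-scaled library sizes. Names, coding lengths and windows came from RefSeq's R64 assembly, which matched 6047 identifiers and all 54 members; the count files carry no coordinates. Paralogs were sought with blastn 2.17.0.

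Members and lists were chosen with earlier results of these data known. Library values are given for all nuclear, export and cytoplasmic genes, the 10 nucleolar genes with the largest change, all genes not called, and the extremes of level per kb, plus some of their complex partners, added after values were seen. Alternatives were DESeq2 1.42.0, other scalings and filters, a replicate block, the log10 table and leaving out each library.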

Additional observations from a re-analysis of the deposited data

How the results depend on the processing

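The count of 54 genes called lower stayed within 1.5 times under every alternative, from 32 without wild-type library 2 to 52 with upper quartile factors. With library totals and upper quartile factors the medians were -1.56 and -1.63 for the 54 genes, -1.58 and -1.66 for nucleolar, -1.31 and -1.39 for nuclear, -1.71 and -1.78 for export and cytoplasmic genes and -0.35 and -0.41 for all features, where 2328 and 2508 features were called lower. That shift is built into the scalings, since all features moved with it. With a filter of 50 counts in 2 libraries the median of the 54 was -1.26, and the median of all features was -0.056 with DESeq2 and -0.065 with no filter, and the cause was not tested. With NOG1, RLP24, TIF6 and MRT4 counted as nucleolar, 4 export and cytoplasmic genes were lower, since only 4 were left there.

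Leaving out each library in turn gave 32 to 50 of the 54 genes lower and 0 to 1 higher, 3 to 7 nuclear genes lower, and 12 to 26 of the other pre-60S genes lower and 1 to 2 higher. Over all features it gave 915 to 2179 lower and 1045 to 2281 higher. The medians ran from -1.25 to -1.17 for the 54 genes, from -1.26 to -1.16 for nucleolar and from -1.28 to -0.88 for nuclear genes. A strain left with 1 library was assumed to vary like the other. The strains share replicate numbers but only 2 pairs, and the replicate differences of the strains correlated at -0.0682 across tested genes, so the numbers were not taken as pairing. A fit with the replicate block called 46 of the 54 genes lower, with NOP16 (adjusted p = 0.0128) and LOC1 (0.0464) gained, DBP10 (0.056) lost and no change reversed. The lowest counts among the 54 were 36 and 43 in deletion libraries 1 and 2, for RIX7 and ERB1, both called under each alternative.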
